A study of Mus musculus with 4 samples.

Results

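The genes described here are 10 named components of Nodal and BMP signalling in mouse embryonic stem (ES) cells, namely Nodal, Tdgf1, Lefty1, Lefty2, Smad7, Skil, Bmp4, Id1, Id2 and Id3. They were chosen by name, with earlier results of these data known, from 22143 genes that could be named in the tables, and all 10 were among the 11051 genes expressed highly enough to be tested. The cells were 46C ES cells in which a knock-in added a TAP (tandem affinity purification) tag to the endogenous Atad2, a chromatin factor with AAA ATPase and bromodomain parts, and all libraries share this tag. The tagged line came from 1 clone, and the cells were kept in serum with LIF, the cytokine that maintains the ES cell state. Libraries si-ctrl 1 and si-ctrl 2 came from cells given a scrambled siRNA, and libraries si-Atad2 1 and si-Atad2 2 from cells given siRNA against Atad2. The study describes 2 active siRNAs against Atad2, and which of them was used for which library is not given in the labels. The si-Atad2 libraries may thus differ in their siRNA, and in that case siRNA and pair cannot be told apart. The study describes repeat sequencing of each RNA, and nothing says that the libraries of a group came from separate cultures. Libraries 1 and 2 of a condition may thus be repeat runs of the same RNA, in which case every p-value by limma covers technical spread alone.

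Nodal is a secreted ligand of the TGF-beta family that binds activin receptors together with the coreceptor encoded by Tdgf1 (Cripto), and it acts through Smad2 and Smad3. It switches on its own antagonists Lefty1 and Lefty2, so that the pathway limits itself, while Smad7 and Skil act as inhibitors inside the cell. BMP4, a related ligand, acts through Smad1 and Smad5 and induces the Id genes, whose proteins bind basic helix-loop-helix factors and keep them off DNA. In ES cells grown with LIF and serum, BMP signals and Id proteins are known to hold back neural differentiation.

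The level of a gene is given in FPKM (fragments per kilobase, normalised to the size of the library) and summed over its transcripts. Levels were estimated upstream in separate runs for pair 1 (si-Atad2 1 and si-ctrl 1) and pair 2 (si-Atad2 2 and si-ctrl 2), so each knockdown library was compared with the control library of its own pair. The log2 ratio is that of FPKM + 1, knockdown over control. On this scale the change of genes with low levels is understated. The tables hold no read counts, and the depth is visible only through the authors' 95% intervals, whose half-width was between 0.990% and 9.29% of the level for the 10 genes. With 2 libraries against 2, an exact two-sided permutation test that ignores the pairs cannot go below p = 0.333. One that keeps the pairs has a still higher floor. Genes were therefore tested with limma across all genes, adjusted by Benjamini-Hochberg, at a threshold of 0.05.

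Atad2 itself stood at 34.1 FPKM in the control and 10.1 FPKM in the knockdown library of pair 1, and at 36.0 and 13.0 FPKM in those of pair 2. It fell to 29.6% and 36.2% of the control level (adjusted p = 0.000232 by limma). Over all genes, 138 of 11051 (1.25%) passed the threshold, 110 of them higher after knockdown (0.995%) and 28 lower (0.253%). The ES cell markers were high in all 4 libraries, with Pou5f1 (Oct4) at 701 to 807 FPKM, Nanog at 253 to 338 FPKM and Sox2 at 190.1 to 200.2 FPKM. Summed markers of primitive endoderm, mesoderm, neurectoderm and fibroblasts lay between 4.94 and 8.74 FPKM per list in every library. Of these markers, 5 of 7 for primitive endoderm, 4 of 7 for mesoderm, 3 of the 5 found for neurectoderm and 5 of 7 for fibroblasts were under 1 FPKM in all libraries, and the fibroblast marker Lum was at 0. The trophoblast list summed to 29.4 and 28.9 FPKM in si-ctrl and to 20.6 and 24.7 FPKM in si-Atad2, most of it from Tfap2c, which ES cells also express.

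In the control cells the 10 genes covered a wide range of levels. Tdgf1, the Nodal coreceptor, stood far above the rest with a mean control level of 467 FPKM, the 43rd highest of all tested genes. Nodal and Lefty1 followed at 57.3 and 55.8 FPKM, and the authors' intervals of this pair of genes overlapped in both si-ctrl libraries. Skil came next at 40.7 FPKM, then Id1 at 31.7 FPKM, each apart from its neighbours in both si-ctrl libraries. Id3 at 25.2 FPKM and Lefty2 at 24.6 FPKM could not be told apart in either si-ctrl library, and Lefty2 and Smad7 (22.1 FPKM) not in si-ctrl 2. Id2 at 9.54 FPKM and Bmp4 at 6.75 FPKM were the lowest, close to the median of tested genes at 9.83 FPKM. In si-Atad2 1 the interval of Skil overlapped those of Lefty1 and Id1, so their order could not be told there. In si-Atad2 2 Lefty1 was above Skil and Skil above Id1, as in both si-ctrl libraries.

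**Figure D1:**
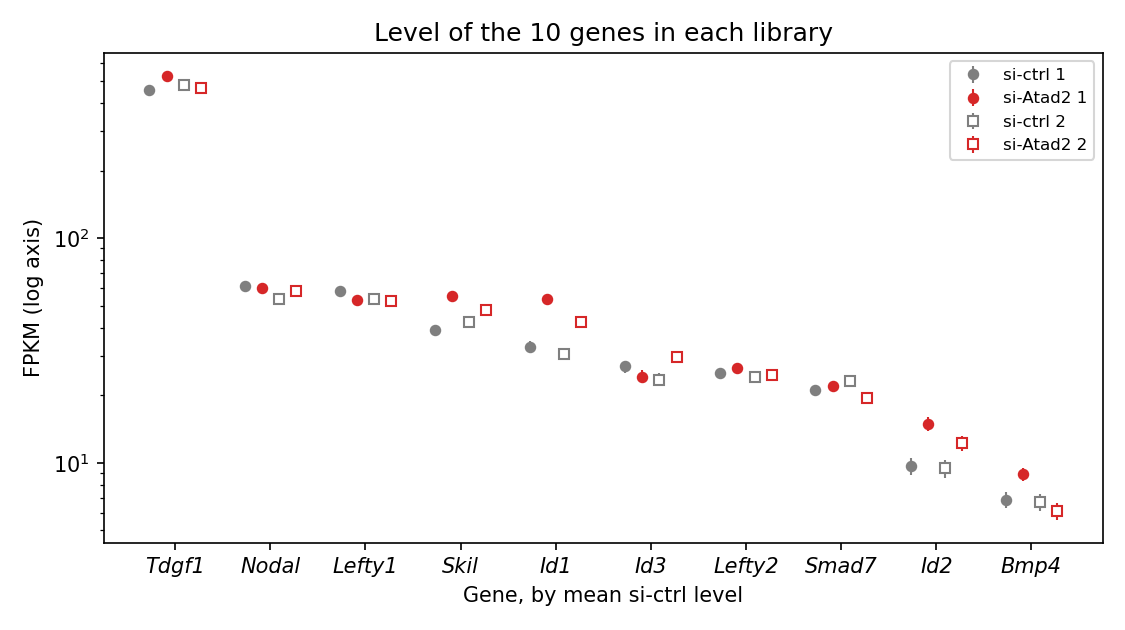
Level of each of the 10 genes in the 4 libraries, in FPKM on a log axis, with genes ordered by mean si-ctrl level. Grey symbols are si-ctrl and red symbols si-Atad2, filled circles are pair 1 and open squares pair 2, and bars are the authors' 95% intervals, combined over transcripts. The red symbols of Id1, Id2 and Skil sit above both grey symbols.

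On Atad2 knockdown, 2 of the 10 genes rose and none fell by the test. Id1 rose by 0.57 and Id2 by 0.46 on the log2 scale, whereas Id3 did not move the same way in both pairs. Of all tested genes 0.995% rose, and since the 10 genes were chosen with earlier results known, their count is a description and not independent evidence. The median log2 ratio was 0.087 over the 10 genes and -0.0082 over all tested genes. Nodal, Tdgf1, Lefty1 and Lefty2 did not pass, with mean log2 ratios between -0.079 and 0.088, and for Nodal and Tdgf1 these means average pairs of opposite sign. In bulk RNA, a change in the number of cells of one kind and a change in RNA per cell cannot be told apart.

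**Figure D2:**
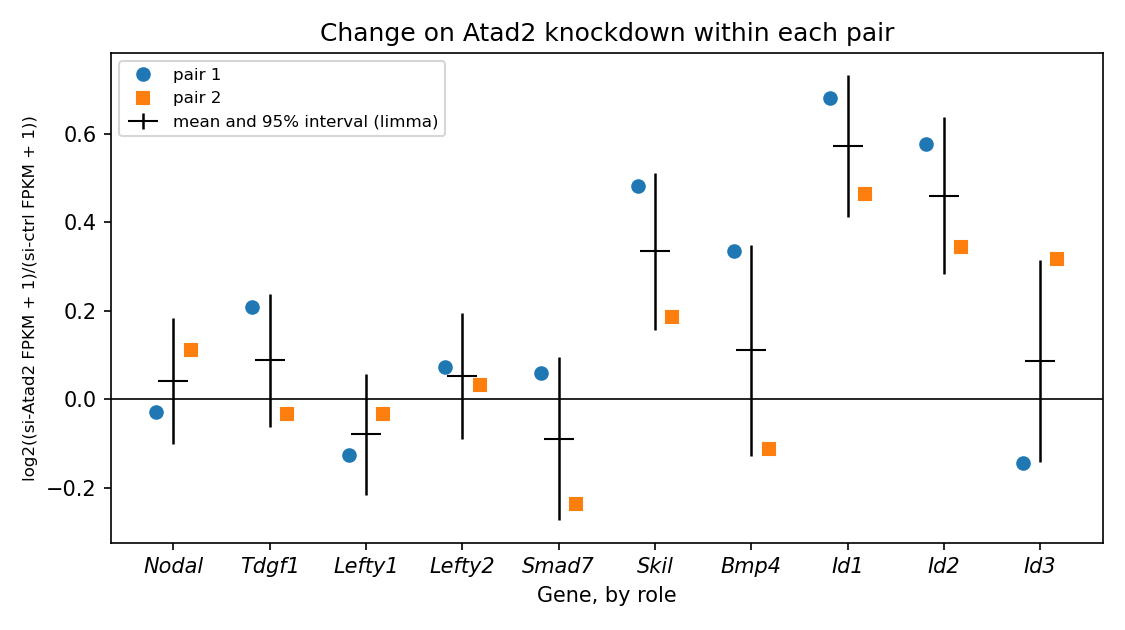
Log2 ratio of FPKM + 1 (knockdown over control) for each gene, grouped by role. Circles are pair 1, squares are pair 2, and black bars give the limma mean with its 95% interval. Id1 and Id2 lie above 0 in both pairs by at least 0.34, while Id3, Bmp4, Smad7, Tdgf1 and Nodal have pairs on opposite sides of 0.

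Nodal, the ligand (chr10:61417972-61425337, plus strand, GRCm38), was listed at 61.0 FPKM in the control and 59.8 FPKM in the knockdown library of pair 1, and at 53.6 and 58.0 FPKM in those of pair 2. The conditions overlapped, and the si-ctrl libraries lay further apart than the pairs did. The mean log2 ratio was 0.042 (95% interval -0.10 to 0.18, adjusted p = 0.791 by limma).

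Tdgf1, the coreceptor (chr9:110939608-110946158, minus strand), was at 455 FPKM in the control and 526 FPKM in the knockdown library of pair 1, but at 479 and 468 FPKM in those of pair 2. It was thus higher after knockdown in pair 1 and lower in pair 2, each time with the authors' intervals apart. On average the log2 ratio was 0.088 (95% interval -0.064 to 0.24, adjusted p = 0.566 by limma). Its main transcript of 1927 bases carried 98.6% to 99.0% of the level in every library. Tdgf1 has processed copies elsewhere in the genome, and how reads shared with them were counted is not given in the sources used here.

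The antagonist genes Lefty1 (chr1:180935039-180938401) and Lefty2 (chr1:180893119-180899102), both on the plus strand, had mean log2 ratios close to 0. Lefty1 was at 58.1 and 53.6 FPKM in si-ctrl 1 and 2 and at 53.2 and 52.4 FPKM in si-Atad2 1 and 2. Both si-Atad2 values of Lefty1 lay below both si-ctrl values, as they did for 26.8% of tested genes. The mean log2 ratio of Lefty1 was -0.079 (95% interval -0.22 to 0.058, adjusted p = 0.568 by limma). Lefty2 was at 25.1 and 24.1 FPKM in si-ctrl and at 26.4 and 24.6 FPKM in si-Atad2, with overlapping conditions. Its mean log2 ratio was 0.052 (95% interval -0.089 to 0.19, adjusted p = 0.731 by limma). These genes are close paralogs, so the division of shared reads between them is uncertain. Within a library, Lefty1 was 2.31 and 2.23 times as high as Lefty2 in si-ctrl and 2.01 and 2.13 times as high in si-Atad2. Nodal was 1.05 and 1.00 times as high as Lefty1 in si-ctrl, and 1.13 and 1.11 times in si-Atad2.

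Of the inhibitors inside the cell, Skil (SnoN), a corepressor that binds Smads, lies at chr3:31095061-31122577 on the plus strand. It was at 39.2 FPKM in the control and 55.1 FPKM in the knockdown library of pair 1, and at 42.2 and 48.1 FPKM in those of pair 2. Both knockdown libraries were above both controls, and the authors' intervals were apart in each pair. The log2 ratios of 0.48 and 0.19 in pairs 1 and 2 averaged 0.33 (standard error 0.077), which missed the threshold (adjusted p = 0.0963 by limma). With the levels rescaled to the same sum in every library (TPM), its adjusted p was 0.0493 by limma, and over the 12 alternatives tried it lay between 0.0493 and 0.459. Nearly all of the Skil level came from a transcript of 6579 bases and one of 6717 bases. The longer one held 36.6% of the level in si-ctrl 1 and 40.4% in si-Atad2 1, and 35.1% in si-ctrl 2 and 36.0% in si-Atad2 2. Its log2 ratio was 0.60 and 0.21 in the 2 pairs, against 0.38 and 0.17 for the shorter one, so that both transcripts were higher after knockdown in both pairs.

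Smad7, which blocks the receptors of both pathways, was at 21.0 FPKM in the control and 21.9 FPKM in the knockdown library of pair 1, and at 23.2 and 19.5 FPKM in those of pair 2. The conditions overlapped, and pair 2 was lower after knockdown with the authors' intervals apart. Over both pairs the log2 ratio averaged -0.089 (95% interval -0.27 to 0.095, adjusted p = 0.639 by limma). Skil stood 1.87 and 1.82 times as high as Smad7 in the si-ctrl libraries and 2.51 and 2.47 times as high in the si-Atad2 libraries.

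Bmp4, the BMP ligand of the set, is annotated at chr14:46383520-46390669 on the minus strand. It was at 6.84 FPKM in the control and 8.89 FPKM in the knockdown library of pair 1, but at 6.66 and 6.08 FPKM in those of pair 2. Only si-Atad2 1 stood out, and the value of the other knockdown library was below both controls. Its mean log2 ratio was 0.11 (95% interval -0.13 to 0.35, adjusted p = 0.654 by limma). The annotated end of Bmp4 overlaps the coding gene Gm15217 on the opposite strand, and an antisense RNA lies within it. Whether the counting used the strand is not stated, so the value of Bmp4 is uncertain.

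Id1 showed the largest change of the 10 genes. The gene, which encodes an inhibitor of basic helix-loop-helix factors, lies at chr2:152736274-152737410 on the plus strand. In pair 1 its level was 32.9 FPKM in the control library (authors' 95% interval 31.1 to 34.8) against 53.4 FPKM in the knockdown library (51.0 to 55.8). In pair 2 it was 30.4 FPKM in the control (28.5 to 32.3) against 42.3 FPKM in the knockdown (40.2 to 44.5). Both knockdown libraries were well above both controls, by 1.62-fold in pair 1 and 1.39-fold in pair 2. The log2 ratios of 0.68 and 0.46 averaged 0.57, with a standard error of 0.070 (adjusted p = 0.00942 by limma), the 26th highest among all tested genes. The si-ctrl libraries differed from each other by -0.11 and the si-Atad2 libraries by -0.33 on this scale, less than the change on knockdown.

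Id2, which acts in the same way and lies at chr12:25093799-25096092 on the minus strand, rose alongside it from a lower level. The control library of pair 1 held 9.65 FPKM (8.79 to 10.5) against 14.9 FPKM (13.8 to 16.0) in the knockdown library. In pair 2 these values were 9.44 FPKM (8.56 to 10.3) and 12.2 FPKM (11.3 to 13.2). The conditions did not overlap, and the level rose 1.54-fold and 1.30-fold. Its mean log2 ratio was 0.46 (standard error 0.078, adjusted p = 0.0328 by limma), the 70th highest. Id1 was 3.41 and 3.22 times as high as Id2 in si-ctrl and 3.59 and 3.46 times as high in si-Atad2, so their proportion was nearly kept.

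Id3, at chr4:136143822-136145392 on the plus strand, was at 26.8 FPKM in the control and 24.2 FPKM in the knockdown library of pair 1, and at 23.5 and 29.5 FPKM in those of pair 2. It was lower after knockdown in pair 1, where the authors' intervals overlapped, and higher in pair 2, where they were apart. The mean log2 ratio was 0.086 (95% interval -0.14 to 0.31, adjusted p = 0.725 by limma). Id1 was 1.23 times as high as Id3 in si-ctrl 1 against 2.21 times in si-Atad2 1, and 1.30 times in si-ctrl 2 against 1.44 times in si-Atad2 2. Id1, Id2 and Id3 together summed to 69.4 and 63.3 FPKM in the si-ctrl libraries and to 92.5 and 84.0 FPKM in the si-Atad2 libraries. Id4, the remaining Id gene, was too low to be tested, at 0.581 and 0.743 FPKM in si-ctrl and at 0.887 and 0.874 FPKM in si-Atad2, with overlapping intervals in both pairs.

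The calls of Id1 and Id2 depended on the processing. Both were lost when no filter on low values was used (adjusted p = 0.459 for each by limma) and when transcripts shorter than 200 bases were kept in the sums (adjusted p = 0.0921 and 0.172 by limma). Id2 was also lost without a trend in the variance (adjusted p = 0.0594 by limma) and with length-matched transcripts alone (adjusted p = 0.0629 by limma), where Id1 could not be tested. Over all alternatives with a test the adjusted p by limma lay between 0.00304 and 0.459 for Id1 and between 0.0145 and 0.459 for Id2, and the log2 ratio stayed between 0.52 and 0.62 for Id1 and between 0.35 and 0.52 for Id2.

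The promoters of Id2 and Id3 are shown because Id2 passed the threshold and Id3 did not. In pair 2 their log2 ratios were close, at 0.34 for Id2 and 0.32 for Id3, and Id2 was not tested against Id3. The promoters were read from RefSeq on GRCm38.p6, from 250 bases before to 50 bases after the start listed there. Promoters of 5 of the 10 genes were at hand (Nodal, Tdgf1, Id2, Id3 and Bmp4), and Id1, Lefty1, Lefty2, Skil and Smad7 had no entry. Capitals mark GGCGCC, a GC-rich element known to be bound by Smads of the BMP branch, and GTCTG, which contains the core of the Smad-binding element, each searched on both strands. The Id2 window is chr12:25096043-25096342 on the minus strand and the Id3 window chr4:136143572-136143871 on the plus strand. The GENCODE annotation starts Id2 at 25097140 and Id3 at 136143497, outside these windows, so the sequence around those starts was not searched.
Id2: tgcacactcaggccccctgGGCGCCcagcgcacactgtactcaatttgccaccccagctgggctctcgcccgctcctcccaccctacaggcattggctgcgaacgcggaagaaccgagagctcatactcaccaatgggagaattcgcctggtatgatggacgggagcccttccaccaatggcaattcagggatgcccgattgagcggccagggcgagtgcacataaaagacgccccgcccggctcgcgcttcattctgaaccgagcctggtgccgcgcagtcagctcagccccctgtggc
Id3: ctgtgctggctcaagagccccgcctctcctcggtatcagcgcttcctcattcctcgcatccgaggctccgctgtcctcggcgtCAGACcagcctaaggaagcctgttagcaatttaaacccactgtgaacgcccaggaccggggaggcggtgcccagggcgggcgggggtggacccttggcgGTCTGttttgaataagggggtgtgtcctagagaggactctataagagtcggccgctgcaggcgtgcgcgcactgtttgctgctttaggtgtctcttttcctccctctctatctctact

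The Id2 promoter window held 1 GGCGCC, with its first base at position -231 from the RefSeq start, and no GTCTG. The Id3 promoter window held no GGCGCC and 1 copy each of GTCTG and its reverse complement CAGAC, at positions -68 and -167. GGCGCC was found in 11.9% and GTCTG in 49.6% of all 32851 promoter windows of this length. Of the other windows, that of Tdgf1 held 1 GTCTG at position -113, while those of Nodal and Bmp4 held neither. AATCCACA, an element bound by Foxh1, the partner of Smad2 in Nodal signalling, was found in none of the 5 windows and in 0.855% of all windows. The matches do not overlap, and they describe letters in a short window and not binding.

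Across the 10 genes, Id1, Id2, Skil and Lefty2 had ratios above 0 in both pairs and Lefty1 had ratios below 0 in both. Of all tested genes, 28.5% were above 0 and 34.2% below 0 in both pairs. The remaining 5 genes had opposite signs in the 2 pairs. Both si-Atad2 libraries were above both si-ctrl libraries for Id1, Id2 and Skil, against 22.2% of tested genes, and below them for Lefty1 alone.

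**Figure D3:**
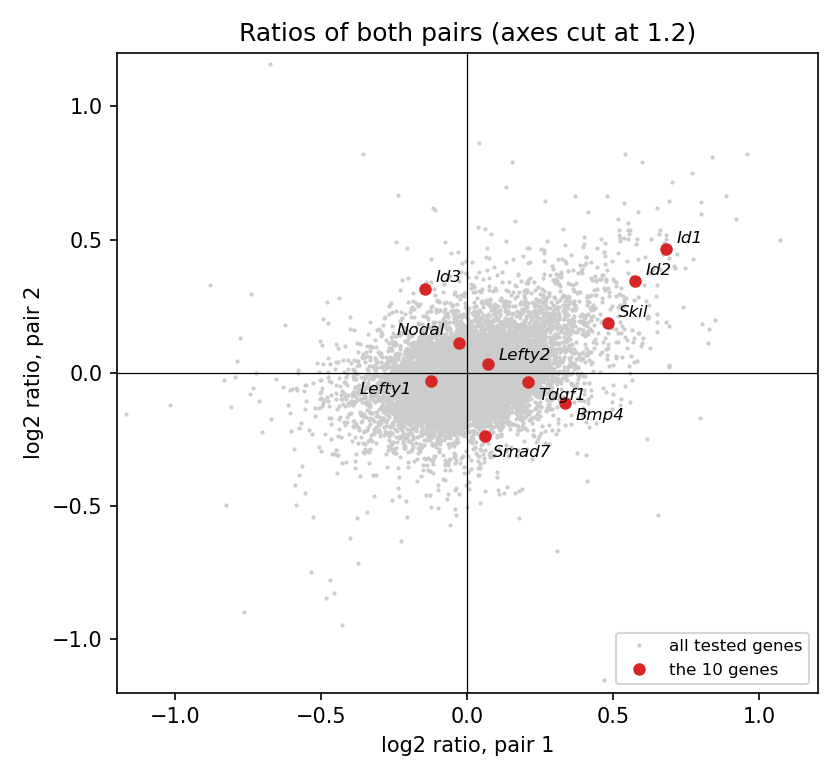
Log2 ratio, knockdown over control, in pair 1 (horizontal) and pair 2 (vertical) for all tested genes (grey) and the 10 genes (red). The axes end at 1.2, which leaves 5 tested genes outside. Id1, Id2 and Skil lie at the upper right edge of the cloud, Id3 above and to the left of its centre, and Nodal, Lefty1 and Lefty2 within it.

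The wider pathway was described with lists of 92 further genes, chosen with earlier results of these data known, of which 50 were tested. None of these rose by the test, against 0.995% of all tested genes, and 2 fell, Inhbb and Tfap2c, against 0.253%. Their median log2 ratio was -0.022, close to that of all tested genes. Inhbb encodes a subunit of activin B, a ligand that uses the same receptors as Nodal. It was at 13.3 and 12.9 FPKM in si-ctrl 1 and 2 and at 9.34 and 10.2 FPKM in si-Atad2 1 and 2, so the conditions did not overlap. Its mean log2 ratio was -0.38 (standard error 0.072, adjusted p = 0.0488 by limma). Tfap2c, a transcription factor of trophoblast and germ cells that BMP can induce, was at 24.2 and 23.9 FPKM in si-ctrl and at 15.7 and 19.4 FPKM in si-Atad2. Its mean log2 ratio was -0.44 (standard error 0.082, adjusted p = 0.0483 by limma). Both stood just under the threshold, and over the 12 alternatives the adjusted p by limma lay between 0.0287 and 0.459 for Inhbb, which passed in 6 of them, and between 0.0236 and 0.459 for Tfap2c, which passed in 5. Without the pairing, Tfap2c missed the threshold (adjusted p = 0.0558 by limma).

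**Figure D4:**
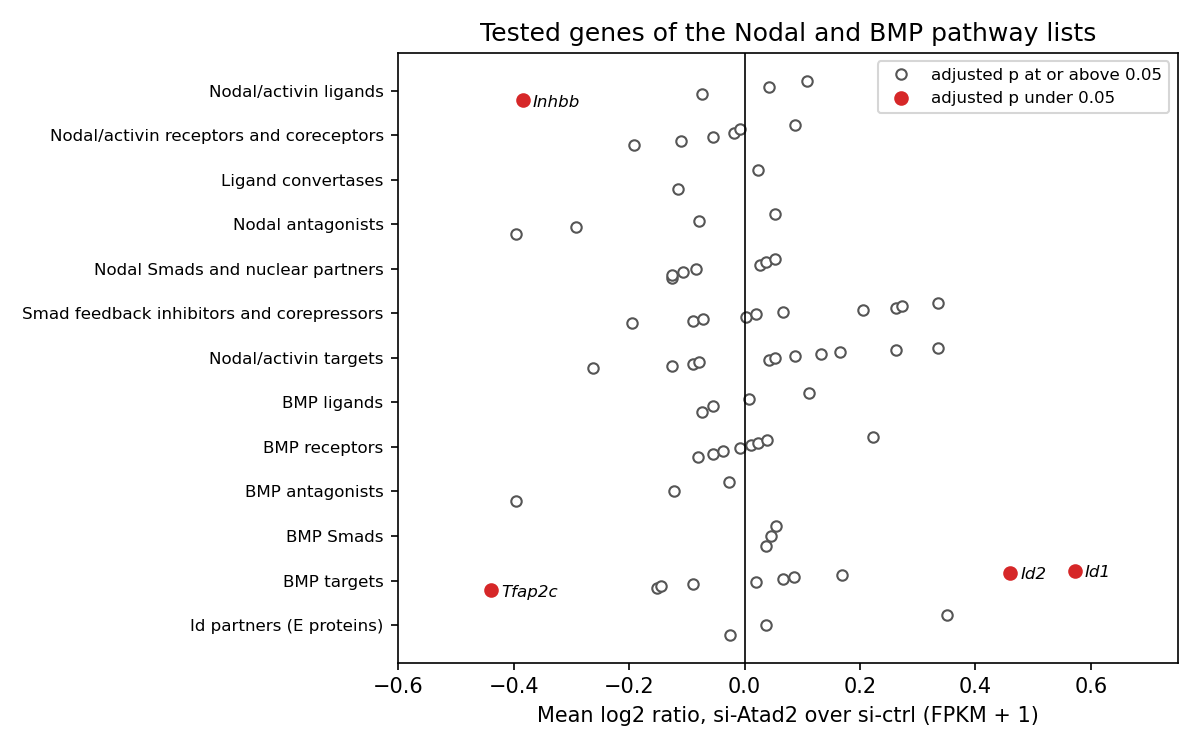
Mean log2 ratio, knockdown over control, for the tested genes of each list, with a gene shown in every list that holds it. Red points passed the threshold of 0.05 after adjustment and open points did not. Id1 and Id2 stand at the right end of the BMP targets and Tfap2c at their left end, while Inhbb stands apart from the other ligands.

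By role, and with the 10 genes counted in, the lists of receptors, convertases, antagonists and Smads held no gene past the threshold. This covers 6 tested receptors and coreceptors of Nodal and activin, 8 receptors of BMP, 2 convertases, 4 antagonists of Nodal, 3 antagonists of BMP, 7 Smads and partners of Nodal and 3 Smads of BMP. Among 10 tested BMP targets, Id1 and Id2 rose, Tfap2c fell and 7 did not pass. Among 11 tested Nodal targets and 10 tested Smad inhibitors and corepressors none passed, and their medians were 0.052 and 0.044. The E proteins, which Id proteins bind, numbered 3, and none of them passed. Of 4 tested ligands of the Nodal and activin list Inhbb alone passed, of 4 tested of the BMP list none did, and Bmp2 lay under the level needed for a test.

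The 5 most highly expressed of the further genes that did not pass are given next, with their values. Tgif1, a corepressor of Smad2, was at 108.7 and 111.0 FPKM in si-ctrl and at 88.3 and 103.9 FPKM in si-Atad2 (mean log2 ratio -0.20, adjusted p = 0.210 by limma). Dusp9, an ERK phosphatase that BMP induces in ES cells, was at 66.2 and 59.7 FPKM in si-ctrl and at 57.8 and 55.8 FPKM in si-Atad2 (mean log2 ratio -0.14, adjusted p = 0.298 by limma). Gdf3, a ligand related to Nodal, was at 36.6 and 36.7 FPKM in si-ctrl and at 33.6 and 35.9 FPKM in si-Atad2. The mean log2 ratio was -0.074 for Gdf3, -0.026 for Tcf3, an E protein, and 0.038 for Smad4, which both pathways share. That of Tcf3 became 0.0091 after rescaling to TPM.

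None of the 12 ES cell markers passed the threshold. They summed to 3329 and 3322 FPKM in si-ctrl and to 3015 and 3087 FPKM in si-Atad2. Their median log2 ratio was -0.14, and 10 of the 12 were below 0 in both pairs, against 34.2% of all tested genes. Nanog, a core pluripotency factor, was at 338 FPKM in the control against 253 FPKM in the knockdown of pair 1, and at 332 against 313 FPKM in pair 2 (adjusted p = 0.176 by limma). Pou5f1 was at 807 against 739 FPKM and at 778 against 701 FPKM (adjusted p = 0.250 by limma). The part of these differences in the values of Id1 and Id2 was not tested.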

How the data were processed

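RNA-seq tables of 4 libraries were used, 2 given scrambled siRNA and 2 given siRNA against Atad2, grouped by the sample labels. The submitters' processing notes name TopHat, Cuffdiff and mm9, without versions, and the supplement names Bowtie. The loci in the tables match GRCm38, which was used here. The authors deposited FPKM with 95% intervals for 59120 transcripts, from 1 Cuffdiff run for each pair of libraries. Their tables of fold changes and p-values were not used.

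Transcripts were named with GENCODE vM21. A length match within 3 bases inside the locus named 14818, the only coding gene of the locus 29607, and the only coding gene with a transcript length within 5% another 3994. This last step was added after Bmp4 was found unnamed. Transcripts under 200 bases were dropped and FPKM summed per gene, with half-widths combined in quadrature. The dropped transcripts held 54.2% and 52.3% of the FPKM of all transcripts in si-ctrl 1 and 2, and 57.5% and 53.4% in si-Atad2 1 and 2. Genes averaging 1 FPKM or more, with no failed estimate, were tested on the log2 ratios of both pairs (pseudocount 1 FPKM) with lmFit and eBayes with a trend, in limma 3.58.1 (R 4.3.3). The replicate number is thus a block, which follows from the authors' runs. The fit was checked on simulated ratios with normal noise and planted changes larger than those of Id1 and Id2. That check does not cover changes of their size. Deviations of same-numbered libraries had a Pearson correlation of -0.026 across genes. Figures used Python 3.11.15, numpy 2.4.6, pandas 2.3.3 and matplotlib 3.10.9.

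The 10 genes, the pathway lists and the marker lists were chosen with earlier results of these data known. Other named genes are the pathway genes past the threshold, the 5 highest in si-ctrl that did not pass, and Pou5f1, Nanog and Sox2. Alternatives were pseudocounts of 0.1 and 5 FPKM, no filter or a minimum of 5 FPKM, TPM, median of ratios, transcripts of every length, length-matched transcripts, no block, no trend, removal of the trend with GC content, and each pair alone.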

Additional observations from a re-analysis of the deposited data

How the results depend on the processing

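The alternatives of filter, block and trend leave the log2 ratio of a gene as it is, so its direction was fixed there. The choices of transcripts left the ratios of the 10 genes that could be tested the same or nearly so. Under both other pseudocounts, TPM, median of ratios and removal of the GC trend, the direction held for all 10 genes. With each pair alone, the sign differed between the pairs for Nodal, Tdgf1, Smad7, Id3 and Bmp4. The counts of pathway genes in this section include the 10 genes. With no filter on low values, limma called 0 of 18896 genes (1897 at an unadjusted p under 0.05). It called 0 of the 10 genes (3 unadjusted) and 0 of 101 pathway genes (17 unadjusted). Atad2, at -1.53, then had an adjusted p of 0.402 by limma. With transcripts of every length limma called 11 of 11085 genes (1428 unadjusted), 0 of the 10 genes (3 unadjusted) and 0 of 60 pathway genes (14 unadjusted). With length-matched transcripts it called 32 of 3663 genes (482 unadjusted) and 0 of 14 pathway genes (6 unadjusted). Of the 10 genes, 3 could then be tested, and it called 0 of them (2 unadjusted). Without the trend it called 79 genes, 1 of the 10 genes and 1 pathway gene, and under TPM 209 genes in place of 138. A minimum of 5 FPKM and median of ratios each left 2 pathway genes of 4, namely Id1 and Id2. Inhbb and Tfap2c were lost in both settings. Without the replicate block it called 163 genes and 2 of the 10 genes, and Tfap2c had an adjusted p of 0.0558, the only named gene whose call the block changed. Omitting the names given by closest length, an alternative chosen after seeing the data, gave 193 genes and 2 of the 9 genes that could then be tested. The ratio of Tcf3 was 0.0091 under TPM. Each pair alone leaves no test, and Atad2 then ranged from -1.66 to -1.40. For each of these values the cause was not tested. The tables hold no counts, so the precision is limited to what the authors' intervals show.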

Other observations

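Some genes of the pathway lists, chosen after their values were seen, had ratios of the same sign in both pairs without passing the threshold. Ski, the paralog of Skil, had a log2 ratio of 0.26 in pair 1 and 0.29 in pair 2 (adjusted p = 0.0971 by limma). Pmepa1, a target and inhibitor of Smad2 signalling, had 0.27 and 0.26 (adjusted p = 0.156 by limma), and the E protein gene Tcf12 had 0.42 and 0.29 (adjusted p = 0.0723 by limma). The activin antagonist genes Fst, at -0.50 and -0.29, and Fstl3, at -0.33 and -0.26, had adjusted p of 0.0943 and 0.146 by limma, from mean control levels of 1.91 and 2.39 FPKM. The receptor gene Bmpr1a had 0.22 and 0.23 (adjusted p = 0.183 by limma), and Ccnd2, a cyclin gene, had -0.30 and -0.23 (adjusted p = 0.139 by limma).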
